A study of Homo sapiens with 12 samples.

Results

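The 47 genes described here are those of DNA repair and of the damage checkpoint, chosen by name from 7 classes: 1 gene of direct reversal, 5 of mismatch repair, 13 of base excision and single-strand break repair, 13 of homologous recombination, 5 of end joining, 4 of Fanconi and crosslink repair and 6 of the damage checkpoint. All 47 were found by a single identifier among the 20263 genes of the deposited table. The rule names genes and uses no measured value, but the list was drawn up with earlier results of these data known. The study asked how gene expression in glioma cells under hypoxia depends on HIF1α and HIF2α. Messenger RNA was sequenced in U87 cells (the human glioblastoma line U-87 MG) kept at 1% O2, in 4 groups of 3 libraries. These were cells with an empty vector (vector), the HIF1α knockout (HIF1α-ko), the HIF2α knockout (HIF2α-ko) and the dual knockout (HIF1α/2α-ko). The labels give 72 h of hypoxia for every group, while the general methods name a shorter time for mRNA detection, and no group was kept at another oxygen level or given temozolomide. Whether the knockout cells were clones or pools, and whether the libraries of a group came from separate cultures, is not given in the sources used here, so the spread between libraries may be technical.

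Cells keep several repair pathways, each for its own kind of damage. MGMT takes methyl groups off guanine directly, mismatch repair corrects replication errors, and base excision repair removes single damaged bases and seals the gap. Homologous recombination copies a break from the sister chromatid, end joining ligates broken ends, and the Fanconi pathway opens crosslinks, while the checkpoint kinases halt the cell cycle until the damage is mended. In glioblastoma these pathways are known for the response to temozolomide, an alkylating drug whose guanine adducts are reversed by MGMT and whose other methylated bases are substrates of base excision repair. HIF1α and HIF2α are the oxygen-controlled subunits of the transcription factors that bind hypoxia response elements.

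The values are TPM, a unit of transcript abundance that divides reads by gene length and scales every library to the same total, so the depth of the libraries is unknown and no counting error can be given. The targeted transcripts were lower than in vector but still present in the knockouts. HIF1A, the gene of HIF1α, had a TPM of 112, 109.99 and 151 in vector, 57.3, 49.5 and 38.6 for HIF1α-ko, 108, 76.1 and 76.6 for HIF2α-ko and 89.2, 67.8 and 69.4 for the dual knockout, and its log2 fold change from vector was -1.34 ± 0.20 (SE, adjusted p = 0.000851) in HIF1α-ko and -0.71 ± 0.20 (SE, adjusted p = 0.0104) in the dual knockout. In the libraries labelled HIF1α/2α-ko the HIF1A level was higher than in those labelled HIF1α-ko, by 0.64 ± 0.20 (SE, adjusted p = 0.0287). Against HIF2α-ko, where HIF1A was not targeted and changed by -0.52 (adjusted p = 0.112) from vector, the dual knockout differed in HIF1A by -0.19 (adjusted p = 0.453), which did not pass. For EPAS1, the gene of HIF2α, the TPM was 286, 333 and 346 in vector, 251, 288 and 255 for HIF1α-ko, 87.6, 118 and 116 for HIF2α-ko and 101, 119.5 and 129.9 for the dual knockout, a change of -1.59 ± 0.14 (SE, adjusted p = 0.000375) in HIF2α-ko and -1.45 ± 0.14 (SE, adjusted p = 1.30e-05) in the dual knockout. These levels do not show whether a protein was made. Of 7 tested markers of the line, 3 were lower in the dual knockout (VIM, FN1 and EGFR) and 1 (OLIG2) higher, with a median change of -0.77, and the sum of all 10 markers was 13224 to 17244 TPM in vector and 6829 to 10383 TPM in the dual knockout. The part of this difference in the results below was not tested. VIM ranged over 5635 to 14690.3 TPM and EGFR, the lowest of 5 high markers with CD44, FN1 and CHI3L1, over 22.6 to 120.5 TPM, while the glial and stem cell genes GFAP, S100B and SOX2 stayed under 1 TPM in all 12 libraries. The highest of 8 markers of blood, epithelial, endothelial and liver cells was CDH5, at 0.226 to 3.63 TPM, and the sum of the 8 was 3.27 to 8.31 TPM in vector and 3.03 to 3.61 TPM in the dual knockout. Vector replicate 1 stood apart from the other 2 vector libraries: its correlation with them across genes was 0.968 and 0.966, against 0.989 between those 2, and its share of mitochondrially encoded RNA was 3.17%, against 0.517% to 2.23% in the other 11 libraries.

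Promoters were read from RefSeq (GRCh38.p14) as 300-base windows, from 250 bases before to 50 after each gene's start, and 42 of the 47 genes had one. The core letters of a hypoxia response element, ACGTG or GCGTG on either strand, were present in 34 of the 42 (81%), in 63.4% of the 9439 windows of tested genes and in 48.4% of all 35116 windows. CCAAT was found in 54.8% of the 42 windows, against 36.5% of those of tested genes and 34.6% of all. The E2F letters TTTGGCG or TTTCCCG were in 23.8%, against 9.33% and 6.06%, and the cell cycle homology letters TTTGAA in 7.14%, against 9.46% and 15.2%. Such matches describe letters in a window, not binding. The 250 bases before the start are printed for MGMT, which was listed at 0 in every library, for LIG3 and PMS1, which rose most in the dual knockout within their pathways, and for MDC1, which was lower in each single knockout. Capitals mark every CG in MGMT and the hypoxia response core on either strand in the other 3.
MGMT, chr10:129466991-129467240, plus strand: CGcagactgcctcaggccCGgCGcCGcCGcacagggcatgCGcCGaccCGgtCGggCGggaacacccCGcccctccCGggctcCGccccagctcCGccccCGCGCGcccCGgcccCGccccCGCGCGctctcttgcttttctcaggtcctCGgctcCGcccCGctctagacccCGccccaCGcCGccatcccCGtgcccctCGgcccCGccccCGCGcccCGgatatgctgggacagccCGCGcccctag
LIG3, chr17:34980262-34980511, plus strand: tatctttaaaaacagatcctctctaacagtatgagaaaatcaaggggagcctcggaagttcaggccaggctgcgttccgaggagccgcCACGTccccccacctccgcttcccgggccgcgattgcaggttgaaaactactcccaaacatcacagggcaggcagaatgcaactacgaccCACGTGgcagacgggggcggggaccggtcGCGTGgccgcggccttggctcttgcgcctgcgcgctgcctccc
PMS1, chr2:189784200-189784449, plus strand: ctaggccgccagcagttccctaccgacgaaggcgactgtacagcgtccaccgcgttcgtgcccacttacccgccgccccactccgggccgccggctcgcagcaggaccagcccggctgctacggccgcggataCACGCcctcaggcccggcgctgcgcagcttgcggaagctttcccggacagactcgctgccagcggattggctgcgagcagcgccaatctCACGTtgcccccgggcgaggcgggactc
MDC1, chr6:30717282-30717531, minus strand: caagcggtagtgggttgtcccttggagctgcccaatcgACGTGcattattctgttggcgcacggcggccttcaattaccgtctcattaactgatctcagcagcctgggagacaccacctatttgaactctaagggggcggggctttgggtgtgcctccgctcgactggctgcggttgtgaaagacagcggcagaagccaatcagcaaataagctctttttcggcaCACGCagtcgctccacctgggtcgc
The LIG3 window held 4 matches, of which the ones that begin 72 and 71 bases upstream of the start overlap as CACGTG, a palindrome that is also the letters of an E-box. PMS1 had 2 matches upstream, at 117 and 28 bases, and 2 more among the bases after the start, which are not printed. In the PARP1 window there was 1 match, 35 bases downstream. The MGMT window was rich in CG, with 45 in its 300 bases, against a median of 14 over all windows and 26 over those of tested genes, and 96.5% of all windows and 94.2% of those of tested genes had fewer. DNA methylation was not measured.

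MGMT, the methyltransferase that reverses guanine methylation, had a TPM of 0 in all 12 libraries, so it is listed at 0 and gives no comparison. A further 8 genes did not reach 1 TPM in at least 3 libraries and were not tested. These were EXO1, the exonuclease of mismatch repair, 5 genes of homologous recombination (BRCA1, BRCA2, BARD1, XRCC2 and BLM), the end joining ligase LIG4 and the checkpoint kinase ATR, which reached 1.13 TPM at most. Fitted without the filter, 3 of these 8 passed an adjusted p of 0.05 against vector, on levels around or under 1 TPM. Of all 16881 genes in that fit, 3792 were higher and 1859 lower in the dual knockout. For HIF1α-ko these were 1882 and 969, and for HIF2α-ko 581 and 589, so nothing is read from the count of 3. BARD1, the partner of BRCA1, had 0.691, 0.5402 and 0.797 in vector, 0.262, 0.249 and 0.152 for HIF1α-ko, 0.769, 1.097 and 0.619 for HIF2α-ko and 0.719, 0.3299 and 0.468 for the dual knockout, and its change in HIF1α-ko was -0.46 ± 0.11 (SE, adjusted p = 0.0221). XRCC2, which acts in strand exchange, had 0.458, 0.481 and 0.404 in vector, 0.261, 0.1897 and 0.164 for HIF1α-ko, 0.239, 0.0887 and 0.302 for HIF2α-ko and 0.192, 0.12003 and 0.325 for the dual knockout, and changed by -0.27 ± 0.07 (SE, adjusted p = 0.0354) in HIF1α-ko and by -0.26 ± 0.07 (SE, adjusted p = 0.021) in the dual knockout. ATR had 0.332, 0.0108 and 0.142 in vector, 0.143, 0.3099 and 0.298 for HIF1α-ko, 0.135, 0.204 and 0.0719 for HIF2α-ko and 0.298, 1.13 and 1.09 for the dual knockout, and changed by 0.64 ± 0.17 (SE, adjusted p = 0.0164) in the dual knockout. For ATR, dual knockout replicate 1 lay among the vector libraries and the other 2 above them. The other 38 genes were tested, and their mean in vector ran from 0.579 TPM for PMS1 to 99.1 TPM for MPG, with 19 of them under 5 TPM and 7 of at least 20 TPM.

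Every fold change below is on the log2(TPM + 1) scale, which understates the change of low genes, and every adjusted p comes from limma with Benjamini-Hochberg adjustment over the 11731 genes tested. Most of the calls among the repair genes were in the dual knockout. In HIF1α/2α-ko 16 of the 38 tested genes (42.1%) rose against vector and 2 (5.3%) fell, where 31.8% of all tested genes rose and 14.8% fell. In HIF1α-ko 5 rose (13.2%) and 1 fell (2.6%), against 17.3% and 8.77% of all tested genes. In HIF2α-ko 1 rose and 1 fell (2.6% each), against 5.07% and 5.89%. Leaving out a single library gave 10 to 19 rises in the dual knockout (10 without its replicate 3) and 0 to 5 falls (0 without vector replicate 1 or dual knockout replicate 2 or 3, and 5 without vector replicate 2). It gave 2 to 6 rises in HIF1α-ko, with 2 without HIF1α-ko replicate 2 or vector replicate 2 or 3 and 3 without HIF1α-ko replicate 3 or HIF2α-ko replicate 3. In HIF2α-ko the rise was lost without vector replicate 3 or any 1 of the 3 HIF2α-ko libraries. Without replicate 1 of every group, the counts were 21 rises and 2 falls in the dual knockout, 12 and 0 for HIF1α-ko, and 4 and 5 for HIF2α-ko. The calls over all genes changed too: of the 11488 tested there, 5253 rose and 2201 fell in the dual knockout. For HIF1α-ko these were 4534 and 1831, and for HIF2α-ko 2378 and 1875. With all 12 libraries, 20 of the repair genes passed in at least 1 knockout, 14 of them in 1 knockout, 6 in 2 and none in all 3. The median change of the 38 genes was 0.39 in the dual knockout, 0.17 for HIF1α-ko and -0.12 for HIF2α-ko, beside 0.21, 0.18 and -0.04 over all tested genes. In bulk libraries, less RNA of a gene per cell and fewer cells that express it cannot be told apart, and the 3 comparisons share the vector libraries. Where libraries are said below to lie apart from those of another group, the share of all tested genes that do so was not counted.

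**Figure D1:**
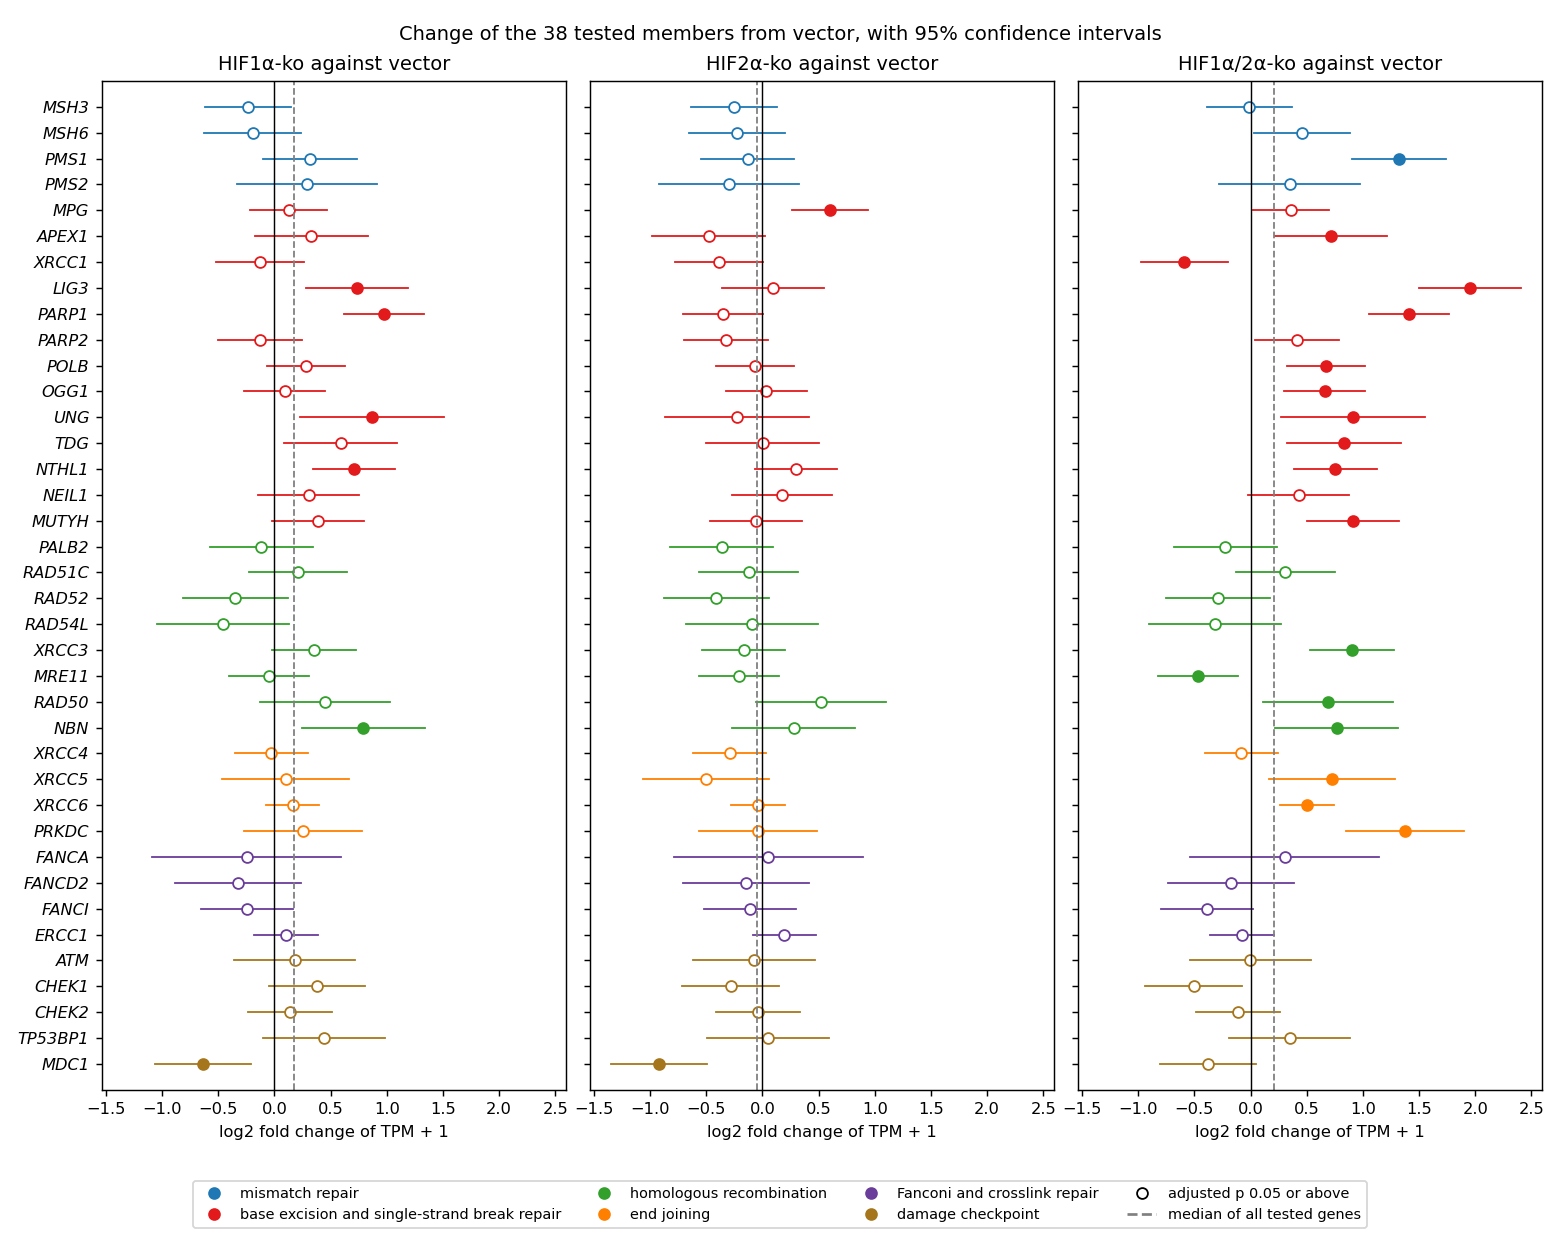
Log2 fold change from vector (x axis, log2 of TPM + 1) of the 38 tested genes (y axis) in each knockout group, with 95% confidence intervals as bars, filled points for an adjusted p under 0.05, colors for the pathway and a dashed line at the median of all tested genes. Filled points to the right of 0 number 16 in the dual knockout, 5 in HIF1α-ko and 1 in HIF2α-ko, where 31.8%, 17.3% and 5.07% of all tested genes rose. The red points of base excision repair make up 9 of the 16.

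The calls are given here by pathway, and no difference between pathways was tested. Beside them, 31.8% of all tested genes rose and 14.8% fell in the dual knockout. The rises in mismatch repair and homologous recombination were near that share, and nothing is read from them. Base excision and single-strand break repair gave 9 rises and 1 fall among 13 tested genes in the dual knockout, with a median change of 0.72, which is 0.51 above the median of all tested genes. End joining gave 3 rises among 4, with a median 0.41 above all genes, and mismatch repair 1 rise among 4, with a median 0.20 above. In homologous recombination 3 rose and 1 fell among 8, with a median 0.16 under that of all genes. By limma no gene of the Fanconi and crosslink class (4 tested) or of the checkpoint class (5 tested) passed the threshold there, with 0 and 1 at an unadjusted p under 0.05, and their medians were 0.33 and 0.32 under that of all tested genes. These medians rest on 4 to 13 genes each and carry no test.

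**Figure D2:**
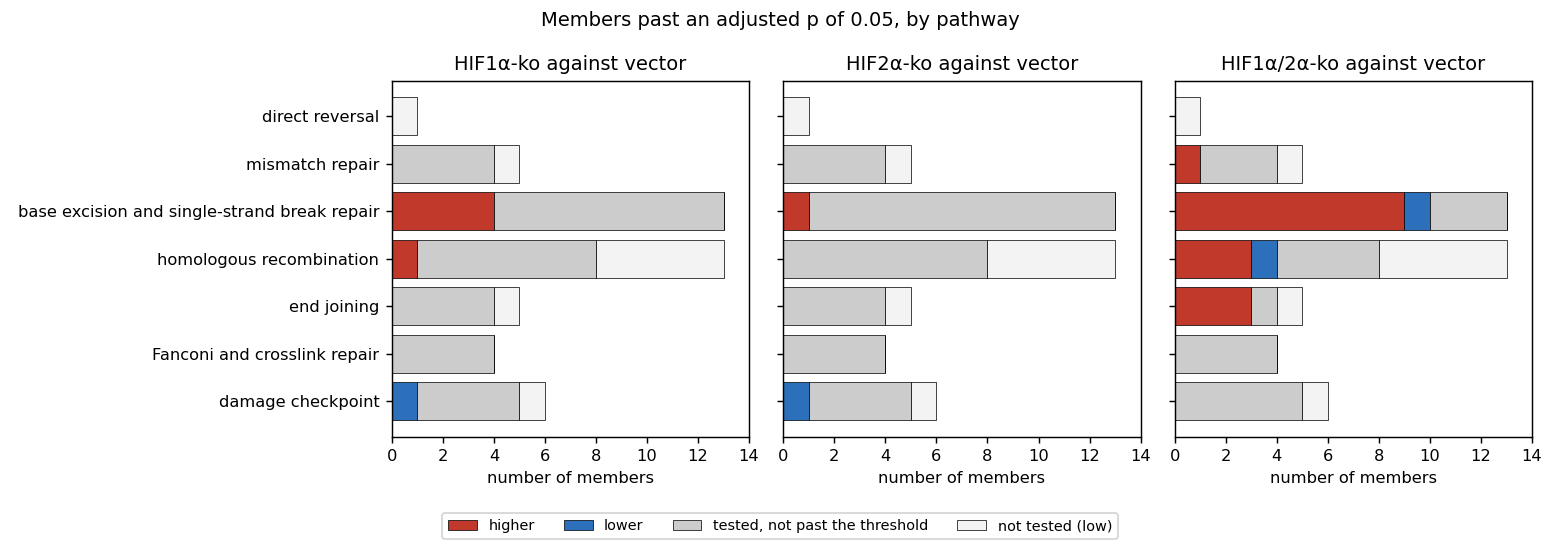
Number of genes (x axis) in each of the 7 repair classes (y axis) that were higher (red), lower (blue), tested without passing an adjusted p of 0.05 (grey) or not tested for low values (pale), in each knockout against vector. The red part of base excision and single-strand break repair holds 9 genes in the dual knockout, 4 for HIF1α-ko and 1 for HIF2α-ko. Of all tested genes 31.8%, 17.3% and 5.07% rose in these groups.

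Base excision repair starts with glycosylases that cut out a damaged base. Of the 7 glycosylases in the set, 5 rose in the dual knockout, where 31.8% of all tested genes rose. UNG, which removes uracil, had a TPM of 42.4, 35.8 and 19.7 in vector, 55.5, 57.9 and 59.3 for HIF1α-ko, 41.8, 17.4 and 25.1 for HIF2α-ko and 52.4, 63.8 and 63.01 for the dual knockout. All 3 HIF1α-ko and all 3 dual knockout libraries lay above the vector libraries, and HIF2α-ko overlapped vector. Its change was 0.87 ± 0.30 (SE, adjusted p = 0.0475) in HIF1α-ko and 0.91 ± 0.30 (SE, adjusted p = 0.0227) in the dual knockout, and both calls were lost with either rescaling of the libraries. The call in HIF1α-ko was also lost without any 1 of its own libraries, vector replicate 2 or 3, HIF2α-ko replicate 3 or dual knockout replicate 2 or 3, and that in the dual knockout without vector replicate 3 or dual knockout replicate 2 or 3. NTHL1, which removes oxidised pyrimidines, had 4.31, 4.81 and 3.396 in vector, 9.25, 6.39 and 6.84 for HIF1α-ko, 5.49, 5.16 and 5.26 for HIF2α-ko and 7.52, 8.305 and 7.25 for the dual knockout. Its libraries did not overlap vector in any knockout, and it changed by 0.71 ± 0.17 (SE, adjusted p = 0.0101) in HIF1α-ko and 0.76 ± 0.17 (SE, adjusted p = 0.00295) in the dual knockout, with 0.29 (adjusted p = 0.287) in HIF2α-ko. Quantile normalization ended both calls, and median ratio scaling that in HIF1α-ko. MUTYH, which removes adenine paired with oxidised guanine, had 3.68, 3.33 and 3.21 in vector, 5.06, 4.66 and 4.57 for HIF1α-ko, 4.42, 2.68 and 2.78 for HIF2α-ko and 5.804, 7.49 and 8.89 for the dual knockout. Only the dual knockout passed, with 0.91 ± 0.19 (SE, adjusted p = 0.00182), although the HIF1α-ko libraries also lay above vector at 0.39 (adjusted p = 0.144).

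OGG1, the glycosylase of oxidised guanine itself, had a TPM of 18.7, 18.8 and 17.5 in vector, 23.4, 18.7 and 17.1 for HIF1α-ko, 16.6, 22.6 and 17.8 for HIF2α-ko and 26.6, 34.9 and 27.7 for the dual knockout. The 3 dual knockout libraries were above all 9 others, and the change from vector was 0.66 ± 0.17 (SE, adjusted p = 0.00625), a call lost with quantile normalization. TDG, which removes thymine from mispairs and oxidised methylcytosine, had 1.84, 1.76 and 1.74 in vector, 2.34, 3.34 and 4.06 for HIF1α-ko, 1.25, 2.21 and 1.98 for HIF2α-ko and 2.61, 4.04 and 5.66 for the dual knockout. It changed by 0.83 ± 0.23 (SE, adjusted p = 0.011) in the dual knockout and by 0.59 (adjusted p = 0.0787) in HIF1α-ko, with every library of both groups above the vector range. The call was lost without dual knockout replicate 3. MPG, the glycosylase of methylated purines, showed another order, with 105, 108 and 84.5 in vector, 125, 106 and 94.05 for HIF1α-ko, 164, 141 and 146 for HIF2α-ko and 154, 113 and 117 for the dual knockout. It was the only tested gene of the set to rise in HIF2α-ko, by 0.60 ± 0.16 (SE, adjusted p = 0.0296), and the dual knockout libraries also lay above vector at 0.36 (adjusted p = 0.0775). The call in HIF2α-ko was lost when any 1 of its 3 libraries, or vector replicate 3, was left out. NEIL1, another glycosylase of oxidised bases, was low, at 0.535 to 1.69 TPM over the 12 libraries, and passed in no comparison.

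Among the genes that act after the glycosylases, PARP1 and LIG3 rose in both HIF1α-ko and HIF1α/2α-ko. PARP1, the sensor of single-strand breaks, had a TPM of 17.6, 13.7 and 13.5 in vector, 26.9, 33.1 and 30.5 for HIF1α-ko, 11.5, 11.8 and 10.9 for HIF2α-ko and 32.9, 45.9 and 45.3 for the dual knockout. The HIF1α-ko and dual knockout libraries were all above the vector libraries and the HIF2α-ko libraries all below them. Its change was 1.41 ± 0.16 (SE, adjusted p = 3.63e-05) in the dual knockout, 0.98 ± 0.16 (SE, adjusted p = 0.00185) in HIF1α-ko and, short of the threshold, -0.35 (adjusted p = 0.193) in HIF2α-ko. The 2 calls were kept under every alternative in which the gene was tested, except that HIF1α-ko did not reach a log2 fold change of 1. LIG3, the ligase that seals single-strand breaks, had 1.35, 0.417 and 0.7304 in vector, 1.94, 2.698 and 1.43 for HIF1α-ko, 1.19, 0.718 and 0.8601 for HIF2α-ko and 5.46, 6.16 and 6.28 for the dual knockout. Mean TPM was 0.832 ± 0.473 (SD, n = 3) in vector and 5.97 ± 0.443 in the dual knockout, and the change of 1.96 ± 0.21 (SE, adjusted p = 2.01e-05) was the largest of the 38 genes in any knockout. In HIF1α-ko the change was 0.73 ± 0.21 (SE, adjusted p = 0.0236), and this call was lost with quantile normalization and without vector replicate 2, vector replicate 3 or HIF1α-ko replicate 2. XRCC1, the scaffold that holds LIG3 at the break, went the other way, with 66.3, 52.5 and 51.99 in vector, 62.7, 50.05 and 44.1 for HIF1α-ko, 48.5, 37.7 and 43.6 for HIF2α-ko and 45.8, 35.8 and 31.5 for the dual knockout. All dual knockout libraries were below all vector libraries, at -0.59 ± 0.18 (SE, adjusted p = 0.0168), and the call was lost without vector replicate 1 or either of dual knockout replicates 2 and 3.

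APEX1, the endonuclease that cuts at the abasic site, had a TPM of 52.7, 42.1 and 44.1 in vector, 44.7, 74.9 and 58.6 for HIF1α-ko, 31.1, 37.1 and 30.5 for HIF2α-ko and 83.7, 52.9 and 101 for the dual knockout. The dual knockout libraries were above vector but spread from 52.9 to 101 TPM, and the change of 0.72 ± 0.23 (SE, adjusted p = 0.0226) lost its call without dual knockout replicate 1 or 3, without vector replicate 2 or 3, and with either rescaling. POLB, the polymerase that fills the gap, had 11.9, 15.5 and 12.6 in vector, 14.02, 18.4 and 16.8 for HIF1α-ko, 12.4, 11.97 and 13.6 for HIF2α-ko and 18.6, 24.03 and 22.9 for the dual knockout. All 3 dual knockout libraries lay above the other 9, at 0.67 ± 0.16 (SE, adjusted p = 0.00443), with 0.28 (adjusted p = 0.207) in HIF1α-ko. PARP2, the second break-sensing polymerase, ranged over 4.896 to 10.3 TPM and changed by 0.41 (adjusted p = 0.0668) in the dual knockout, with its 3 libraries above all others.

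**Figure D3:**
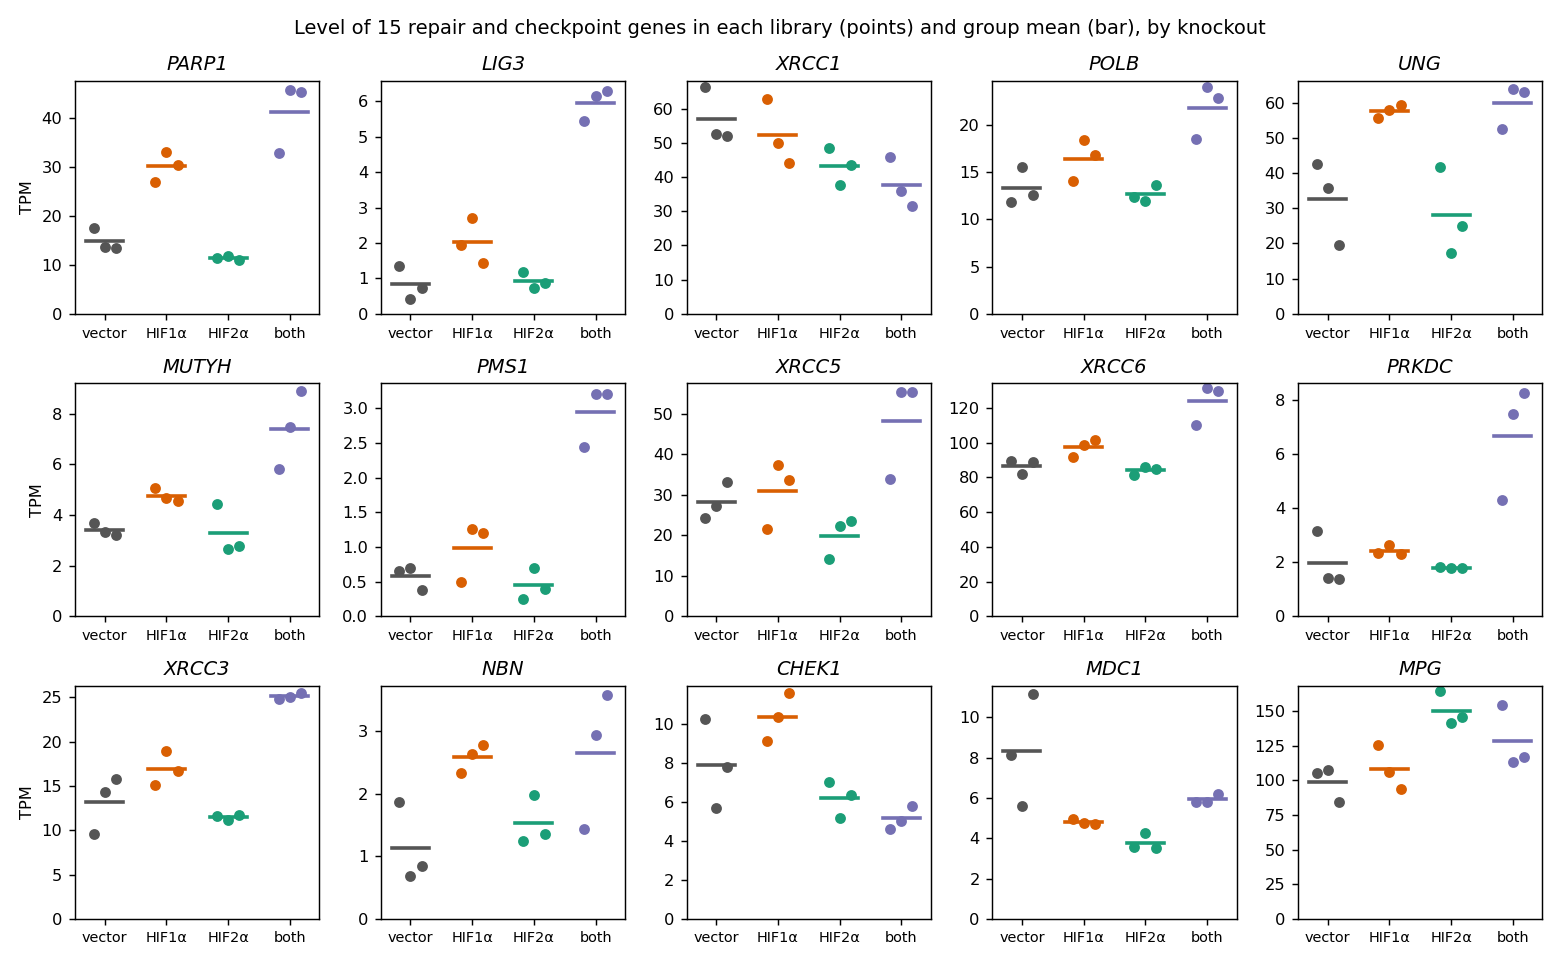
TPM (y axis, linear, from 0) of 15 named genes in each of the 12 libraries (points) with the mean of the 3 libraries of each group (bars), for vector, HIF1α-ko, HIF2α-ko and the dual knockout (both). LIG3, PMS1, PRKDC, POLB, MUTYH, XRCC3 and XRCC6 have all 3 dual knockout points above the other 9, and XRCC1 has all 3 below the vector points. The share of all tested genes that separate in this way was not counted, and 31.8% of them rose in the dual knockout.

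In mismatch repair 1 of the 4 tested genes was called higher in the dual knockout, where 31.8% of all tested genes rose. PMS1, of the mismatch repair family, had a TPM of 0.656, 0.696 and 0.384 in vector, 0.498, 1.26 and 1.21 for HIF1α-ko, 0.249, 0.693 and 0.397 for HIF2α-ko and 2.44, 3.21 and 3.21 for the dual knockout. Every dual knockout library was above every other library, and the change was 1.32 ± 0.19 (SE, adjusted p = 0.000161), against 0.32 (adjusted p = 0.238) for HIF1α-ko and -0.13 (adjusted p = 0.715) for HIF2α-ko. PMS1 stayed under 1 TPM in vector and HIF2α-ko and entered the test only through the other 2 groups. MSH6, which recognises mismatches, had 4.24, 5.399 and 6.56 in vector, 4.51, 3.64 and 5.62 for HIF1α-ko, 3.81, 4.66 and 4.82 for HIF2α-ko and 6.42, 7.52 and 9.36 for the dual knockout, a change of 0.46 (adjusted p = 0.0766) in the dual knockout. PMS2, the nuclease of the pathway, ranged over 3.43 to 11.1 TPM and changed by 0.35 (adjusted p = 0.343). Its several annotated pseudogenes can share reads with it. MSH3, which recognises small loops, ranged over 1.74 to 3.596 TPM, and its change in the dual knockout was -0.01 with a 95% confidence interval of -0.39 to 0.37.

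In homologous recombination the tested genes moved both ways in the dual knockout. XRCC3, which also acts in strand exchange, had a TPM of 9.61, 14.3 and 15.8 in vector, 15.1, 18.9 and 16.7 for HIF1α-ko, 11.6, 11.1 and 11.7 for HIF2α-ko and 24.8, 25.1 and 25.5 for the dual knockout, so that the dual knockout libraries lay within 1 TPM of each other and above the other 9. Its change was 0.90 ± 0.17 (SE, adjusted p = 0.00102). The 3 subunits of the MRE11 complex, which binds and trims broken ends, did not move together. MRE11, its nuclease, had 1.64, 0.979 and 1.101 in vector, 0.953, 1.22 and 1.31 for HIF1α-ko, 0.654, 0.889 and 1.28 for HIF2α-ko and 0.543, 0.7205 and 0.564 for the dual knockout. All dual knockout libraries were below all vector libraries, at -0.47 ± 0.16 (SE, adjusted p = 0.0336), and the call was lost when any dual knockout library, or vector replicate 1 or 3, was left out. NBN, its regulatory subunit, had 1.86, 0.678 and 0.847 in vector, 2.34, 2.64 and 2.78 for HIF1α-ko, 1.25, 1.98 and 1.37 for HIF2α-ko and 1.43, 2.94 and 3.58 for the dual knockout. It changed by 0.79 ± 0.25 (SE, adjusted p = 0.0372) in HIF1α-ko, where the libraries did not overlap vector, and by 0.77 ± 0.25 (SE, adjusted p = 0.0244) in the dual knockout, where replicate 1 lay within the vector range. Both calls were lost without vector replicate 2 or 3, that in HIF1α-ko also without any 1 of its libraries or HIF2α-ko replicate 3, and that in the dual knockout without its replicate 2 or 3.

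RAD50, the ATPase of the complex, had a TPM of 0.621, 0 and 1.26 in vector, 1.27, 0.967 and 1.102 for HIF1α-ko, 1.15, 1.15 and 1.33 for HIF2α-ko and 0.799, 2.07 and 1.78 for the dual knockout, with a library listed at 0 in vector. The groups overlapped, and the change of 0.69 ± 0.27 (SE, adjusted p = 0.0497) in the dual knockout lost its call under 15 of the alternatives run. PALB2, which links BRCA1 to BRCA2, the strand exchange factor RAD51C, the annealing protein RAD52 and the translocase RAD54L passed in no knockout. Their changes in the dual knockout ran from -0.32 to 0.31, and RAD54L, at 4.26, 2.48 and 2.86 in vector and 2.33, 1.69 and 2.04 for HIF1α-ko, was lower in each HIF1α-ko library than in each vector library at -0.46 (adjusted p = 0.224).

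In end joining the 3 genes called higher in the dual knockout, where 31.8% of all tested genes rose, were the subunits of DNA-dependent protein kinase. PRKDC, the catalytic subunit, had a TPM of 3.14, 1.41 and 1.39 in vector, 2.34, 2.63 and 2.31 for HIF1α-ko, 1.81, 1.798 and 1.77 for HIF2α-ko and 4.31, 7.48 and 8.26 for the dual knockout. All dual knockout libraries were above the other 9, and the change was 1.38 ± 0.24 (SE, adjusted p = 0.000609), against 0.25 (adjusted p = 0.459) for HIF1α-ko and -0.04 (adjusted p = 0.938) for HIF2α-ko. XRCC6, the Ku70 subunit that binds DNA ends, had 89.7, 82.2 and 88.9 in vector, 91.5, 98.9 and 102 for HIF1α-ko, 81.3, 86.2 and 85.2 for HIF2α-ko and 110.1, 132 and 129.96 for the dual knockout. Its change of 0.50 ± 0.11 (SE, adjusted p = 0.0027) was small beside its level but larger than the spread, and all 3 dual knockout libraries lay above the rest. XRCC5, the Ku80 subunit, had 24.3, 27.3 and 33.1 in vector, 21.6, 37.4 and 33.6 for HIF1α-ko, 14.03, 22.2 and 23.6 for HIF2α-ko and 33.9, 55.3 and 55.4 for the dual knockout. The change was 0.73 ± 0.26 (SE, adjusted p = 0.0352), with dual knockout replicate 1 only just above the highest vector library, and the call was lost with either rescaling and when vector replicate 1 or 2 or dual knockout replicate 2 or 3 was left out. XRCC4, the partner of LIG4, stayed at 0.709 to 1.67 TPM in all libraries, and its change in the dual knockout was -0.08 with a 95% confidence interval of -0.41 to 0.24.

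No Fanconi or crosslink gene passed the test against vector. FANCI, which with FANCD2 forms the clamp that closes on damaged DNA, had the smallest p of the class in the dual knockout, with a TPM of 5.998, 3.58 and 5.04 in vector, 3.499, 3.49 and 4.77 for HIF1α-ko, 5.05, 3.91 and 4.203 for HIF2α-ko and 3.82, 3.47 and 2.997 for the dual knockout and a change of -0.39 ± 0.19 (SE, adjusted p = 0.11). FANCD2 ranged over 0.606 to 2.61 TPM and changed by -0.18 (adjusted p = 0.599). FANCA, of the core complex, had 3.36, 0.792 and 0.532 in vector, 1.596, 0.531 and 0.815 for HIF1α-ko, 3.001, 0.909 and 0.751 for HIF2α-ko and 2.17, 1.72 and 1.61 for the dual knockout. Its highest library was replicate 1 in each of the 4 groups. ERCC1, part of the nuclease that cuts beside a crosslink, was among the highest of the genes at 76.8 to 120.5 TPM, and its change in the dual knockout was -0.08 with a 95% confidence interval of -0.36 to 0.21.

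In the checkpoint class MDC1 fell in both single knockouts. MDC1, the adaptor that gathers repair factors on marked chromatin, had a TPM of 8.15, 5.61 and 11.2 in vector, 4.94, 4.75 and 4.71 for HIF1α-ko, 3.58, 4.24 and 3.53 for HIF2α-ko and 5.799, 5.78 and 6.197 for the dual knockout. All HIF1α-ko and HIF2α-ko libraries were below all vector libraries, at -0.64 ± 0.20 (SE, adjusted p = 0.0324) and -0.92 ± 0.20 (SE, adjusted p = 0.0128), while the dual knockout lay within the vector range at -0.38 (adjusted p = 0.129). Vector replicate 3 was the highest of the 12 libraries, and both calls were lost without it. The call in HIF1α-ko was also lost without any 1 of its libraries, and that in HIF2α-ko without its replicate 3. CHEK1, the kinase downstream of ATR, had 10.3, 5.701 and 7.78 in vector, 9.14, 10.4 and 11.6 for HIF1α-ko, 7.05, 5.21 and 6.36 for HIF2α-ko and 4.62, 5.04 and 5.82 for the dual knockout. Its change in the dual knockout was -0.51 ± 0.20 (SE, adjusted p = 0.053), which did not pass, and its levels in HIF1α-ko were above those of HIF1α/2α-ko in every library. CHEK2, the kinase downstream of ATM, stayed at 6.87 to 11.03 TPM, ATM at 1.22 to 3.41 TPM and TP53BP1, an adaptor at breaks, at 7.6001 to 18.6 TPM, and none of the 3 passed in any knockout. Their 95% confidence intervals in the dual knockout were -0.49 to 0.26, -0.54 to 0.54 and -0.20 to 0.89.

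Several of these genes share exons with a neighbor, mostly one on the opposite strand. In GENCODE 29, 21 of the 47 overlap an exon of a protein-coding gene, and the sources used here do not say whether strand was used in counting, so reads in the shared bases cannot be told apart. LIG3 (chr17:34980494-35009743, GRCh38) shares up to 3754 bases with RFFL, which changed by 0.76 (adjusted p = 0.00537) in the dual knockout. XRCC3 shares 639 bases with KLC1, which changed by 1.16 (adjusted p = 0.0011). MSH6 shares 1328 bases with FBXO11, at 0.76 (adjusted p = 0.0113). PMS1 shares 103 bases with ORMDL1, at 0.83 (adjusted p = 0.0226), OGG1 shares 172 with CAMK1, at 0.48 (adjusted p = 0.0264), and APEX1 shares 54 with PIP4P1, at 1.61 (adjusted p = 0.000121). Some neighbors of called genes did not pass there. These were TOE1 beside MUTYH at 0.39 (adjusted p = 0.0667), TSC2 beside NTHL1 at -0.21 (adjusted p = 0.381), ANKRD49 beside MRE11 at 0.07 (adjusted p = 0.804) and NPRL3 beside MPG at -0.27 (adjusted p = 0.356). POLG, which shares 431 bases with FANCI, changed by 1.44 (adjusted p = 6.10e-06), while FANCI was not called. RAD50 shares 3902 bases with AC116366.3 on its own strand. The part of these neighbors in the values of the repair genes was not tested. No gene overlaps PARP1, POLB, UNG, TDG, NBN, XRCC5, XRCC6 or PRKDC in exons. PARP1, UNG, TDG, MRE11, XRCC6, CHEK2, FANCD2 and PMS2 have annotated pseudogenes.

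The knockouts were also compared with each other. Same-numbered libraries of the 3 knockout groups deviated together, so values with the replicate number as a block in these groups stand beside the others. Libraries of different number were not correlated across groups, so a pairing by number was not shown. The dual knockout exceeded HIF1α-ko in 8 of the 38 tested genes and was under it in 1 (background 17.7% and 10.6% of all tested genes). With the block the counts were 13 and 3, where 3399 and 2251 of all 11596 genes tested with it passed. In the fit without the block, the higher repair genes numbered 4 without HIF1α-ko replicate 1 or 2 or dual knockout replicate 2 or 3. They numbered 5 without HIF1α-ko replicate 3. The 8 were MSH6, PMS1, LIG3, PARP2, OGG1, XRCC3, XRCC6 and PRKDC, with changes from 0.34 to 1.22. The lower gene was CHEK1, at -0.88 ± 0.20 (SE, adjusted p = 0.00607). For PARP1 the difference between these groups was 0.43 (adjusted p = 0.0663), and for UNG it was 0.05 with a 95% confidence interval of -0.59 to 0.69. The dual knockout exceeded HIF2α-ko in 17 of the 38 and was under it in none (background 33.5% and 12.9%). With the block the counts were 19 and 1, where 5109 and 2178 of the 11596 genes passed. At an unadjusted p under 0.05 limma without the block also gave 0 lower. The largest of the 17 differences were LIG3, at 1.86 ± 0.21 (SE, adjusted p = 2.77e-05), and PARP1, at 1.76 ± 0.16 (SE, adjusted p = 8.54e-06).

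HIF1α-ko exceeded HIF2α-ko in 6 genes and was under it in 1 (background 17.8% and 7.37%). With the block the counts were 15 and 1, where 4435 and 1468 of all 11596 genes tested with it passed. The 6 higher genes without the block were APEX1 at 0.81, LIG3 at 0.64, PARP1 at 1.33, UNG at 1.10, XRCC3 at 0.52 and CHEK1 at 0.66, all on the log2 scale. Lower was MPG, at -0.48 ± 0.16 (SE, adjusted p = 0.0435). PARP1 had the smallest p among them, at 0.000183 after adjustment, and its libraries in the 2 groups did not overlap. Leaving out a single library took the count of higher genes from 6 to between 1 and 8. It was 1 without HIF1α-ko replicate 2 or HIF2α-ko replicate 3, and 2 without HIF1α-ko replicate 3 or HIF2α-ko replicate 2. The difference for MPG lost its call without HIF1α-ko replicate 2 or 3, any 1 of the HIF2α-ko libraries or dual knockout replicate 3.

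The interaction compares the change in the dual knockout with both single knockout changes added up. HIF1A itself had an interaction of 1.15 ± 0.28 (SE, adjusted p = 0.0131), and as given above its level was higher in the dual knockout than in HIF1α-ko. Its part in the interactions below was not tested. It passed for 8 of the 38 tested genes, all with a dual knockout value above that sum, where 13.2% of all tested genes passed in this direction and 7.35% in the other. PMS1 changed by 0.32 and -0.13 in the single knockouts and by 1.32 in the dual, an interaction of 1.14 ± 0.27 (SE, adjusted p = 0.0126). LIG3 went from 0.73 and 0.09 to 1.96, an interaction of 1.13 ± 0.30 (SE, adjusted p = 0.0197). For PRKDC the values were 0.25, -0.04 and 1.38, with 1.17 ± 0.34 (SE, adjusted p = 0.0314). For XRCC5 they were 0.10, -0.50 and 0.73, with 1.13 ± 0.37 (SE, adjusted p = 0.0463). MDC1 differed from these, since its single knockouts were low at -0.64 and -0.92 and the dual stood at -0.38, an interaction of 1.17 ± 0.28 (SE, adjusted p = 0.0124). The other 3 were PARP1 at 0.78, MSH6 at 0.88 and PARP2 at 0.87. Leaving out a single library gave 2 to 9 such genes, with 2 without HIF2α-ko replicate 2, 3 without HIF1α-ko replicate 1, HIF2α-ko replicate 3 or dual knockout replicate 3, 4 without HIF1α-ko replicate 3, HIF2α-ko replicate 1 or dual knockout replicate 2, and 5 without vector replicate 2 or 3. The calls for PMS1 and MDC1 were kept in each of these. The neighbor of PMS1, ORMDL1, had an interaction of 1.17 (adjusted p = 0.0465).

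**Figure D4:**
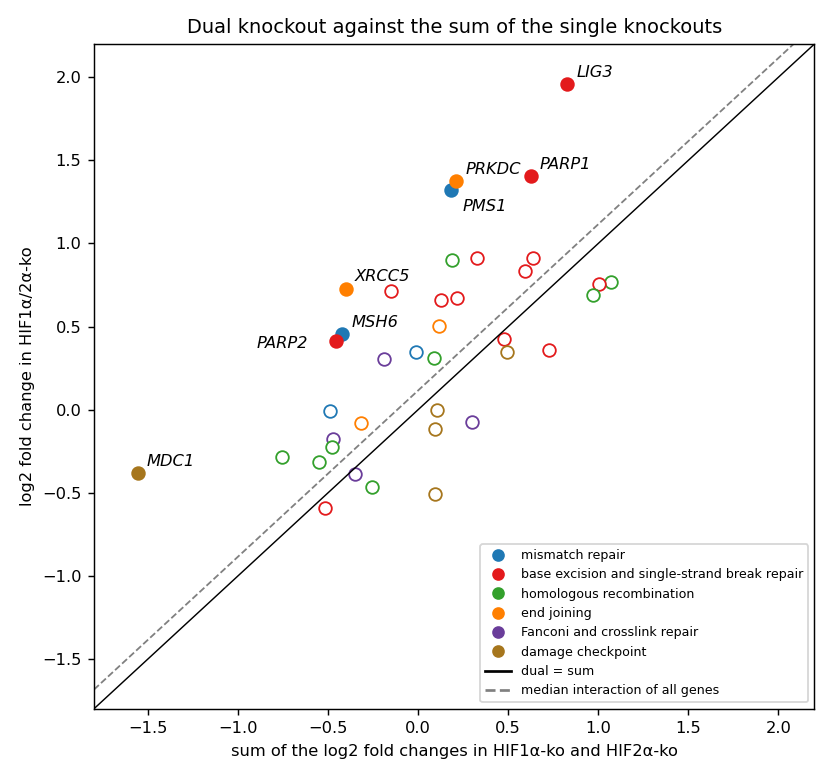
Log2 fold change of each of the 38 tested genes in the dual knockout (y axis) against the sum of its log2 fold changes in HIF1α-ko and HIF2α-ko (x axis), colored by pathway and filled where the interaction passed an adjusted p of 0.05, with a solid line of equal values and a dashed line offset by 0.12, the median interaction of all tested genes. The 8 filled points all lie above both lines, from MSH6 and PARP2 near -0.42 and -0.45 on the x axis to LIG3 at 0.83, with MDC1 far to the left at -1.56.

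The level of change against vector depended on how the libraries were scaled, since the median of all tested genes was 0.21 in the dual knockout as deposited, 0.01 after median ratio scaling and -0.02 after quantile normalization. The counts there went from 16 higher and 2 lower to 12 and 5 after median ratio scaling and to 10 and 7 after quantile normalization. Over all 11731 tested genes they went from 3732 higher and 1741 lower to 2854 and 2600, and to 2829 and 2848. Measured from the median of all tested genes as deposited, the 16 rises ran from 0.30 for XRCC6 to 1.75 for LIG3. Under median ratio scaling FANCI, MDC1 and CHEK1 joined XRCC1 and MRE11 as lower. Of the 16 rises, PMS1, LIG3, PARP1, POLB, MUTYH, XRCC3, XRCC6 and PRKDC passed under every alternative in which they were tested, leaving the fold threshold aside. Of these, POLB, MUTYH, XRCC3 and XRCC6 did not reach a log2 fold change of 1. In HIF1α-ko the counts were 3 higher and 1 lower after median ratio scaling and 2 and 1 after quantile normalization, and in HIF2α-ko 0 and 1, and 1 and 1. Over all tested genes HIF1α-ko had 1278 higher and 1527 lower after median ratio scaling, and 1581 and 1507 after quantile normalization. For HIF2α-ko these were 753 and 579, and 787 and 699.

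**Figure D5:**
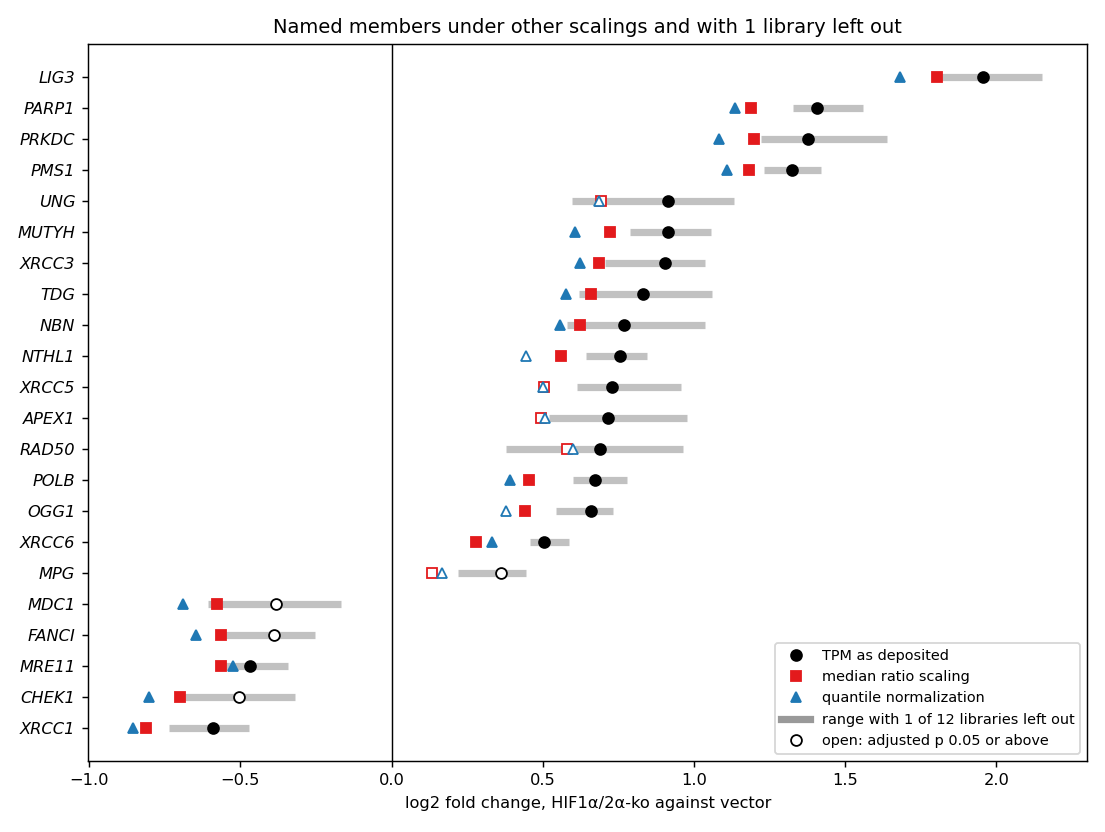
Log2 fold change in the dual knockout against vector (x axis) of the named genes (y axis) for TPM as deposited (black), after median ratio scaling (red squares) and after quantile normalization (blue triangles), with a grey bar for the range when 1 of the 12 libraries was left out and open symbols where the adjusted p was 0.05 or above. Both rescalings move almost every gene to lower values, LIG3 from 1.96 to 1.68 at the least, and XRCC1, CHEK1, MRE11, FANCI and MDC1 are filled below 0 under both.

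Other genes of the same pathways were read from lists written with earlier results of these data known. Beside the 31.8% of all tested genes that rose and the 14.8% that fell, in the dual knockout 4 of 12 tested genes of base excision rose and 2 fell, 4 of 13 of homologous recombination rose and 1 fell, 2 of 5 of end joining rose, 1 of 9 of the Fanconi pathway rose, and 2 of 13 of the checkpoint rose and 2 fell. Several of these shares are near those of all genes, and nothing is read from them about the pathways. The genes with the smallest p of each list follow as values. HMCES, which shields abasic sites, changed by 1.08 (adjusted p = 3.47e-05), and APTX, which clears blocked break ends, by 0.97 (adjusted p = 7.23e-05). In recombination the nuclease MUS81 changed by 0.96 (adjusted p = 0.000354) and RBBP8, which starts end trimming, by 1.01 (adjusted p = 0.00111). The end joining factors PAXX and NHEJ1 changed by 0.74 (adjusted p = 0.00891) and 0.54 (adjusted p = 0.0205), and FANCE of the Fanconi core by 0.86 (adjusted p = 0.000969). The ubiquitin ligase RNF168 changed by 0.77 (adjusted p = 0.00333) and TOPBP1, the activator of ATR, by -0.75 (adjusted p = 0.00378).

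The lists that follow, also written with earlier results known, are for the dual knockout, where 31.8% of all tested genes rose and 14.8% fell. Nucleotide excision repair, which removes bulky lesions and had no gene in the set apart from ERCC1, gave 5 rises and 2 falls among 14 tested genes. DDB1, a damage sensor subunit, was at 0.65 (adjusted p = 0.000387) and UVSSA, of transcription-coupled repair, at 1.22 (adjusted p = 0.000701). Of 9 tested genes of other direct reversal and translesion synthesis 1 rose and 1 fell, namely the polymerase REV1 at 0.91 (adjusted p = 0.0128) and the ubiquitin ligase RAD18 at -0.71 (adjusted p = 0.00389). Among 16 genes that p53 is known to activate, of which XPC and DDB2 also belong to nucleotide excision repair, 11 rose and 1 fell, and their summed TPM was 599 to 770.3 in vector and 1465 to 1737 in the dual knockout. The stress cytokine GDF15, at 4.11 (adjusted p = 1.78e-08), had the smallest p among them and the nuclease AEN the next, at 4.19 (adjusted p = 1.09e-07). Among 15 tested genes of replication and proliferation 2 rose and 7 fell, with a summed TPM of 226 to 296 in vector and 128 to 169 in the dual knockout. RRM1, a subunit of ribonucleotide reductase, changed by -0.99 (adjusted p = 0.000511) and the proliferation marker MKI67 by -1.57 (adjusted p = 0.000874). The part of these 2 lists in the changes of the repair genes was not tested.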

How the data were processed

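Messenger RNA libraries from U87 cells under 1% O2 were sorted by their labels into vector, HIF1α-ko, HIF2α-ko and the dual knockout, with 3 libraries each. The vector columns were matched to the labels as those that carry no knockout code. The authors deposited TPM values for 20263 genes. Per the labels' processing notes, the submitters used FastQC 0.11.2, Trimmomatic 0.36, HISAT2 2.0, bedtools 2.26.0 and the build GRCh38. The counter, its use of strand and the annotation are not given in the sources used here. TPM keeps no depth, so no counting interval is given. Because TPM sums to a fixed total, a rise of some genes lowers the values of others. All 12 columns of per-sample values were used.

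The members and gene lists were chosen with earlier results of these data known. Genes with at least 1 TPM in at least 3 libraries (11731) entered a limma 3.58.1 model (R 4.3.3) of log2(TPM + 1) with all 4 groups and a mean-variance trend. Adjusted p values are two-sided and follow Benjamini-Hochberg within each of 7 contrasts, at a threshold of 0.05. The model was tested on simulated data. Given with every library were MGMT, the genes past the threshold in any knockout against vector, and the gene with the smallest p of each pathway in the dual knockout. From every other list the 2 genes with the smallest p there are named. MSH6, BARD1, XRCC2, ATR and FANCA were printed by library outside this rule, after their values had been seen. Gene positions and overlaps come from GENCODE 29 on GRCh38 and promoters from RefSeq. Python 3.11.15 was used with pandas 2.3.3, numpy 2.4.6 and matplotlib 3.10.9.

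Alternatives were a pseudocount of 0.1, no filter, a mean TPM of at least 5, median ratio scaling, quantile normalization, fits of the compared groups only, the replicate number as a block, no trend, a fold change threshold of 1 on the log2 scale, and each of the 12 libraries left out. The replicate numbers were checked for pairing by correlating the deviations of same-numbered libraries across genes. Between the knockout groups Pearson's r reached 0.463 to 0.508 (replicate 1), 0.227 to 0.25 (replicate 2) and 0.196 to 0.222 (replicate 3), and between vector and the knockout groups -0.0265 to 0.163. The block on the knockout groups was run from these values alone. Libraries of different number were not correlated with each other across groups. Within the knockout groups replicate 1 correlated with the others at 0.975 to 0.985, against 0.991 to 0.992 between replicates 2 and 3. The values of r therefore cannot tell a pairing of all numbers from a shift shared by the replicate 1 libraries.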

Additional observations from a re-analysis of the deposited data

Results flagged for a closer look

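The interaction of the knockouts, taken as the dual knockout's change minus those of both single knockouts together, differed from 0 in 8 of the 38 tested genes, by limma with Benjamini-Hochberg adjustment. HIF1A itself had an interaction of 1.15 (adjusted p = 0.0131), and its transcript was higher in the dual knockout than in HIF1α-ko. Its part in these values was not tested. The largest of the 8 was MDC1, the chromatin adaptor of the checkpoint, at 1.17 (adjusted p = 0.0124), followed by PRKDC, the kinase of end joining, at 1.17 (adjusted p = 0.0314). PMS1 of mismatch repair had 1.14 (adjusted p = 0.0126), XRCC5, the Ku80 subunit, 1.13 (adjusted p = 0.0463), and LIG3, the ligase of single-strand breaks, 1.13 (adjusted p = 0.0197). MSH6, the mismatch sensor, had 0.88 (adjusted p = 0.0442), and the break sensors PARP2 and PARP1 had 0.87 (adjusted p = 0.0264) and 0.78 (adjusted p = 0.0327). In PMS1, PRKDC, LIG3, XRCC5, MSH6, PARP2 and PARP1 the dual knockout had the highest mean of the 4 groups, whereas in MDC1 vector had it and both single knockouts were lower than the dual. Of all tested genes, 13.2% passed with a positive interaction and 7.35% with a negative one. The calls for PMS1 and MDC1 were kept under every alternative in which the gene was tested.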

How the results depend on the processing

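As reported, the median change of the 38 tested genes less that of all tested genes was -0.0078 for HIF1α-ko, -0.0708 for HIF2α-ko, 0.1802 for the dual knockout, 0.113 for dual against HIF1α-ko, 0.212 for dual against HIF2α-ko, 0.0311 for HIF1α-ko against HIF2α-ko and 0.1701 for the interaction. Here a knockout named alone is compared with vector. The values that follow are those that moved by more than 1.5 times for a count, or by more than 0.04, the spread between replicates, for a median. The number of all tested genes called also moved with the setting, so these counts are not read against the shares of the main fit. With a pseudocount of 0.1, the median difference was 0.247 for the dual knockout, 0.0904 for HIF1α-ko against HIF2α-ko and 0.269 for the interaction. Without a filter on low values, the counts were 3 higher and 2 lower for HIF1α-ko and 5 higher for the interaction, and the median difference was 0.0502 for HIF1α-ko, 0.303 for the dual knockout, 0.114 for HIF1α-ko against HIF2α-ko and 0.266 for the interaction. With a filter at a mean TPM of 5, the counts were 3 higher for HIF1α-ko, 9 higher and 1 lower for the dual knockout and 5 higher for dual against HIF1α-ko, and the median difference was -0.183 for HIF2α-ko, 0.299 for dual against HIF2α-ko, 0.115 for HIF1α-ko against HIF2α-ko and 0.237 for the interaction. After median ratio scaling, the counts were 3 higher for HIF1α-ko, 0 higher for HIF2α-ko, 5 lower for the dual knockout, 1 lower for dual against HIF2α-ko and 1 higher for HIF1α-ko against HIF2α-ko. After quantile normalization, the counts were 2 higher for HIF1α-ko, 10 higher and 7 lower for the dual knockout, 3 higher and 2 lower for dual against HIF1α-ko, 4 lower for dual against HIF2α-ko, 2 higher for HIF1α-ko against HIF2α-ko and 5 higher and 1 lower for the interaction, and the median difference was 0.173 for dual against HIF1α-ko, 0.135 for dual against HIF2α-ko and 0.254 for the interaction. In fits of the compared groups only, the counts were 0 lower for HIF1α-ko, 0 higher and 0 lower for HIF2α-ko, 1 lower for the dual knockout and 5 higher for dual against HIF1α-ko. Without the mean-variance trend, the counts were 0 lower for HIF1α-ko against HIF2α-ko. With the replicate block on all 4 groups, the counts were 2 lower for HIF1α-ko, 3 lower for HIF2α-ko and 2 lower for dual against HIF1α-ko. Without replicate 1 of every group, an alternative chosen after seeing the data, the counts were 12 higher and 0 lower for HIF1α-ko, 4 higher and 5 lower for HIF2α-ko, 3 lower for dual against HIF1α-ko, 13 higher for HIF1α-ko against HIF2α-ko and 2 lower for the interaction, and the median difference was -0.126 for HIF2α-ko, 0.299 for the dual knockout and 0.265 for the interaction. With the replicate block on the 3 knockout groups, also chosen after seeing the data, the counts were 13 higher and 3 lower for dual against HIF1α-ko, 1 lower for dual against HIF2α-ko and 15 higher for HIF1α-ko against HIF2α-ko. Requiring at least 1 for the log2 fold change, the counts were 0 higher and 0 lower for HIF1α-ko, 0 higher and 0 lower for HIF2α-ko, 4 higher and 0 lower for the dual knockout, 3 higher and 0 lower for dual against HIF1α-ko, 8 higher for dual against HIF2α-ko, 2 higher and 0 lower for HIF1α-ko against HIF2α-ko and 5 higher for the interaction. Leaving out each of the 12 libraries in turn gave 2 to 6 higher and 0 to 1 lower for HIF1α-ko, 0 to 1 higher and 0 to 1 lower for HIF2α-ko, 10 to 19 higher and 0 to 5 lower for the dual knockout, 4 to 12 higher and 1 to 2 lower for dual against HIF1α-ko, 13 to 18 higher and 0 lower for dual against HIF2α-ko, 1 to 8 higher and 0 to 1 lower for HIF1α-ko against HIF2α-ko and 2 to 9 higher and 0 to 1 lower for the interaction, and median differences of -0.0448 to 0.0591 for HIF1α-ko, -0.158 to 0.0017 for HIF2α-ko, 0.165 to 0.254 for the dual knockout, 0.102 to 0.155 for dual against HIF1α-ko, 0.156 to 0.273 for dual against HIF2α-ko, 0.0077 to 0.0781 for HIF1α-ko against HIF2α-ko and 0.114 to 0.299 for the interaction. No direction of a called gene was reversed. Of 61 calls of named genes in the 7 comparisons, 26 were kept under every alternative in which the gene was tested, leaving the fold threshold aside. The replicate block on all 4 groups, which pairs vector by number although vector did not deviate with the knockouts, changed no other count by over 1.5 times. The depth of the libraries is unknown, so what it limits cannot be stated, and 19 of the 38 tested genes had a vector mean under 5 TPM, where the pseudocount of 1 shrinks the fold change. The cause of these differences was not tested.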
